A study of Mus musculus with 13 samples.

Results

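The genes described here are 37 chaperones and chaperone regulators of mouse microglia: 24 genes of the endoplasmic reticulum (ER), most of them known targets of XBP1 or ATF6, and 13 genes of the cytosolic and mitochondrial heat shock response. They are a list of gene names, drawn up with earlier results of these data known, and all 37 symbols were found in a table of 19737 genes. The table gives FPKM, sequenced fragments scaled by the length of the gene and the size of the library, in 13 libraries of ribosomal-RNA-depleted total RNA. The study asked, by its title, how delivery of circular RNAs with double-stranded regions to neurons bears on microglia in the 5xFAD mouse, a transgenic line that overproduces human amyloid in the brain. Its 4 groups were wild type mice given an AAV PHP.eB vector carrying EGFP (3 libraries), 5xFAD mice given the same EGFP vector (2 libraries), 5xFAD mice given AAV PHP.eB with circPOLR2A (4 libraries) and 5xFAD; PKR KO mice (4 libraries). For the PKR KO group no vector is named in the labels, and no age is given for any group. The circRNA libraries carry 4 different labels, circPOLR2A(9,10), (9,11), (9,12) and (9,13), while the series' design text names (9,10) for all of them, and they were kept as 1 group by their titles. The design text gives the group sizes as numbers of mice, and the labels do not tie a library to an animal, so the p-values measure the spread between these libraries. The 5xFAD transgenes are driven by the Thy1 promoter, which acts in neurons, so microglia of these mice meet amyloid made by other cells.

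Proteins that enter the secretory pathway fold in the ER with the help of chaperones, and unfolded proteins there are sensed by IRE1 (gene Ern1), ATF6 and PERK. IRE1 splices the mRNA of Xbp1, ATF6 is cut and moves to the nucleus, and both factors raise the chaperones, disulfide isomerases and degradation proteins of the ER, whereas PERK phosphorylates eIF2alpha as PKR also does. Unfolded proteins in the cytosol act through another factor, HSF1, whose targets include the inducible Hspa1a and Hspa1b, and the same genes respond to the warmth and handling of cell isolation. Circular RNAs that form imperfect duplexes are known to bind PKR and hold back its activity.

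The promoter letters below are shown because the ER and heat shock responses act through different elements, although 9 of the 20 ER genes and 6 of the 9 heat shock genes with a promoter held no match to the elements of their own arm. RefSeq (GRCm38.p6) held a promoter of 300 bases, from 250 before to 50 after the annotated start, for 29 of the 37 genes, 20 of the ER and 9 of the heat shock arm. Hyou1, Manf, Atf6, Derl1, Hspa8, Hsp90aa1, Hsp90ab1 and Hsf1 had no entry. The ER stress response element (ERSE) was searched as CCAAT, 9 bases of any kind and CCACG, on both strands. It was found in 9 of the 20 ER genes and in 0 of the 9 heat shock genes, against 37 of all 27025 genes with a promoter (0.137%). The matches, read 5′ to 3′ on the strand that holds them, were the following, with the fixed letters in capitals.
Hspa5: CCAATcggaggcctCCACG
Hsp90b1, first match: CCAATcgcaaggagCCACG
Hsp90b1, second match: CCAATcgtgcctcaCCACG
Calr: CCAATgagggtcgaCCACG
Canx: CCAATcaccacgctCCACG
Creld2: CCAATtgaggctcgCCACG
Dnajc3: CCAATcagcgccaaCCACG
Pdia6: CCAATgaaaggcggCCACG
Syvn1: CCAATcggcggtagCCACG
Derl3: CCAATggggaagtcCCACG
The related ERSE-II, ATTGG, 1 base and CCACG, was found in Dnajb11 and Herpud1 and in 0.0444% of all genes with a promoter.
Dnajb11: ATTGGcCCACG
Herpud1: ATTGGgCCACG
The heat shock element was searched as 3 units of GAA and TTC in alternation, spaced by 2 bases. It was found in Hspd1, Hspe1 and Hsph1 and in 0.662% of all genes with a promoter. Hspd1 and Hspe1 are divergent neighbours and share the same letters, at chr1:55088059-55088076. For Hspd1 they lie in the promoter entry at chr1:55087883-55088182. Its other entry, upstream at chr1:55088194-55088493, held no match.
Hspe1, first match: TTCtaGAAccTTC
Hspe1, second match: GAAccTTCcgGAA
Hsph1: TTCtgGAAagTTC
The XBP1 element, TGACG followed at once by TGG, was in none of the 29 genes and in 0.714% of all genes with a promoter. A match is a description of the letters and not a measured binding site.

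The whole promoter of Hspa5, the gene of the ER chaperone BiP and the usual index of the ER response, lies at chr2:34771840-34772139 on the plus strand, with its ERSE match in capitals.
Hspa5 promoter: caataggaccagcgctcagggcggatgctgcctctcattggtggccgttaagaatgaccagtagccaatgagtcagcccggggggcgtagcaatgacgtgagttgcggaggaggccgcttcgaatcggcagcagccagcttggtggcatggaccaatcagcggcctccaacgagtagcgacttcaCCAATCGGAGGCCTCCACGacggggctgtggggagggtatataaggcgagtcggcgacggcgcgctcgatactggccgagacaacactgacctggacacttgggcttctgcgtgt
The promoter of Hspe1, the mitochondrial co-chaperonin, lies at chr1:55087898-55088197 on the plus strand, with the 2 overlapping heat shock matches in capitals.
Hspe1 promoter: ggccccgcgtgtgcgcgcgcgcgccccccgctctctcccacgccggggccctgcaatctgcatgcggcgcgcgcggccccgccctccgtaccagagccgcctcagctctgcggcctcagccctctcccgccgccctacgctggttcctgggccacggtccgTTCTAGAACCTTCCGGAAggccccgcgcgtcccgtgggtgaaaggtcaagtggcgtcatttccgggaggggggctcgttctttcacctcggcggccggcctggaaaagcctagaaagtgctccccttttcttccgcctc

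**Figure D1:**
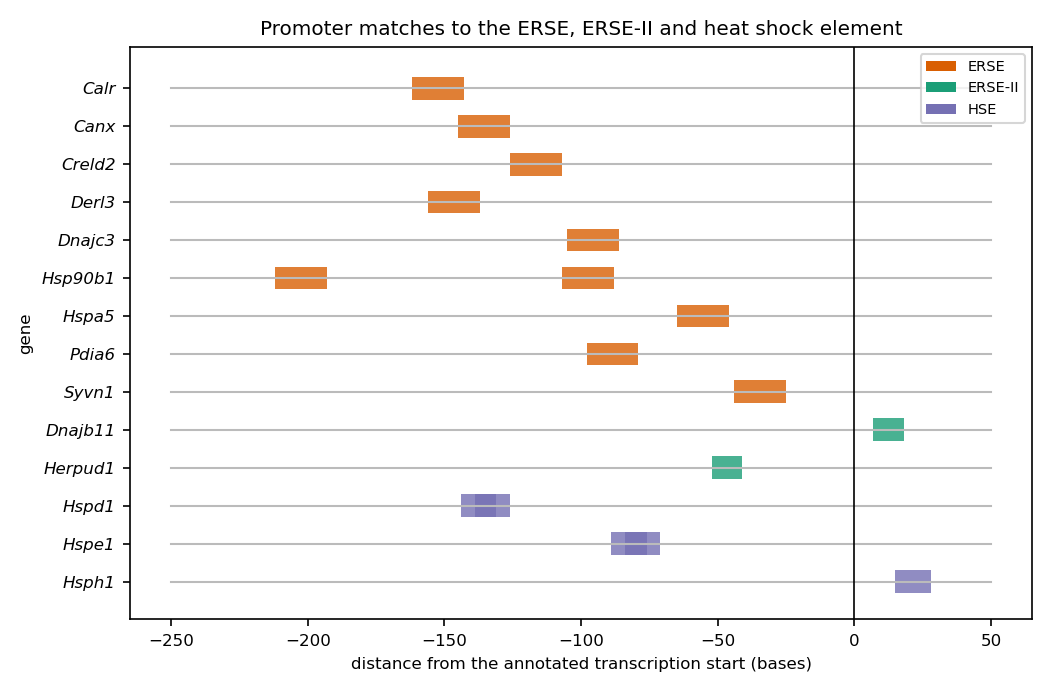
Position of each match to the ERSE (orange), the ERSE-II (green) and the heat shock element (purple) against the annotated start, in bases, for the 14 genes with a match. The ERSE matches lie before the start in all 9 genes, and those of Dnajb11 (ERSE-II) and Hsph1 (heat shock element) lie after it.

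The libraries held 45.2 to 70.0 M fragments, estimated from the steps between low FPKM values, with the highest depths in the PKR KO group (57.7 to 70.0 M). At that depth each gene except Derl3, a rarely expressed degradation factor with 4 to 91 fragments, had a Poisson counting error of at most 5.42% in any library. Eif2ak2, the gene of PKR, was at 3.31 to 4.61 FPKM in the PKR KO libraries against 6.49 and 6.59 in 5xFAD EGFP, so the RNA was lower and not at 0. The summed level of 10 microglial markers was 2694 to 4822 FPKM in every library, and that of 4 plasma cell markers at most 0.626. Wild type replicate 3 stood apart, with 1580 FPKM of 6 oligodendrocyte markers against 392 and 352 in the other wild type libraries, the highest sum of 8 neuronal markers (40.1) and the lowest microglial sum (2694); it was the highest of all 13 libraries for 4 of the 6 oligodendrocyte, 7 of the 8 neuronal and 7 of the 7 endothelial markers. The sums of 6 border macrophage, 7 endothelial and 6 mural markers were 35.6 to 56.5, 54.4 to 127 and 50.4 to 111 FPKM in wild type and 13.5 to 24.6, 25.5 to 70.0 and 21.5 to 50.4 in the other groups. None of the neuronal, oligodendrocyte, endothelial or mural markers was at 0 in any library. These are bulk libraries, in which fewer cells of a type and less RNA per cell cannot be told apart. Library names and a later block of records are given for the PKR KO group alone, so a processing batch and that group cannot be told apart.

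The sum of the 24 ER genes was lowest in wild type and highest in PKR KO microglia. It was 721, 677 and 511 FPKM in the 3 wild type libraries and 844 and 739 in 5xFAD EGFP. The circRNA libraries were at 872, 999, 1014 and 741, and PKR KO at 1033, 870, 1238 and 978. Every 5xFAD library was above every wild type library, 5xFAD EGFP lay below PKR KO, and circRNA overlapped with both. The FPKM sum of the whole table was also lower in wild type (123352 to 135807) than in the 5xFAD libraries (139019 to 170775). As a share of that sum, the ER genes made up 0.404% to 0.548% in wild type, 0.531% and 0.558% in 5xFAD EGFP, 0.499% to 0.648% in circRNA and 0.585% to 0.836% in PKR KO. On this scale wild type overlapped with 5xFAD EGFP and circRNA, and PKR KO stayed above wild type and 5xFAD EGFP. Single libraries stood at the ends of their groups across many genes: wild type replicate 3 was the lowest of its group for 23 of the 23 tested ER genes, circRNA replicate 4 for 20, and PKR KO replicate 3 was the highest of its group for 19. Wild type replicate 3 is the library with the most RNA of oligodendrocyte, neuronal, astrocyte, endothelial and mural markers. Its sum of 6 astrocyte markers was 323 FPKM, against 119 and 93.8 in the other wild type libraries. The part of those cells in its low ER values was not tested. The 11 heat shock genes other than Hspa1a and Hspa1b overlapped between all 4 groups, from 227 FPKM in wild type replicate 2 to 576 in PKR KO replicate 3.

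**Figure D2:**
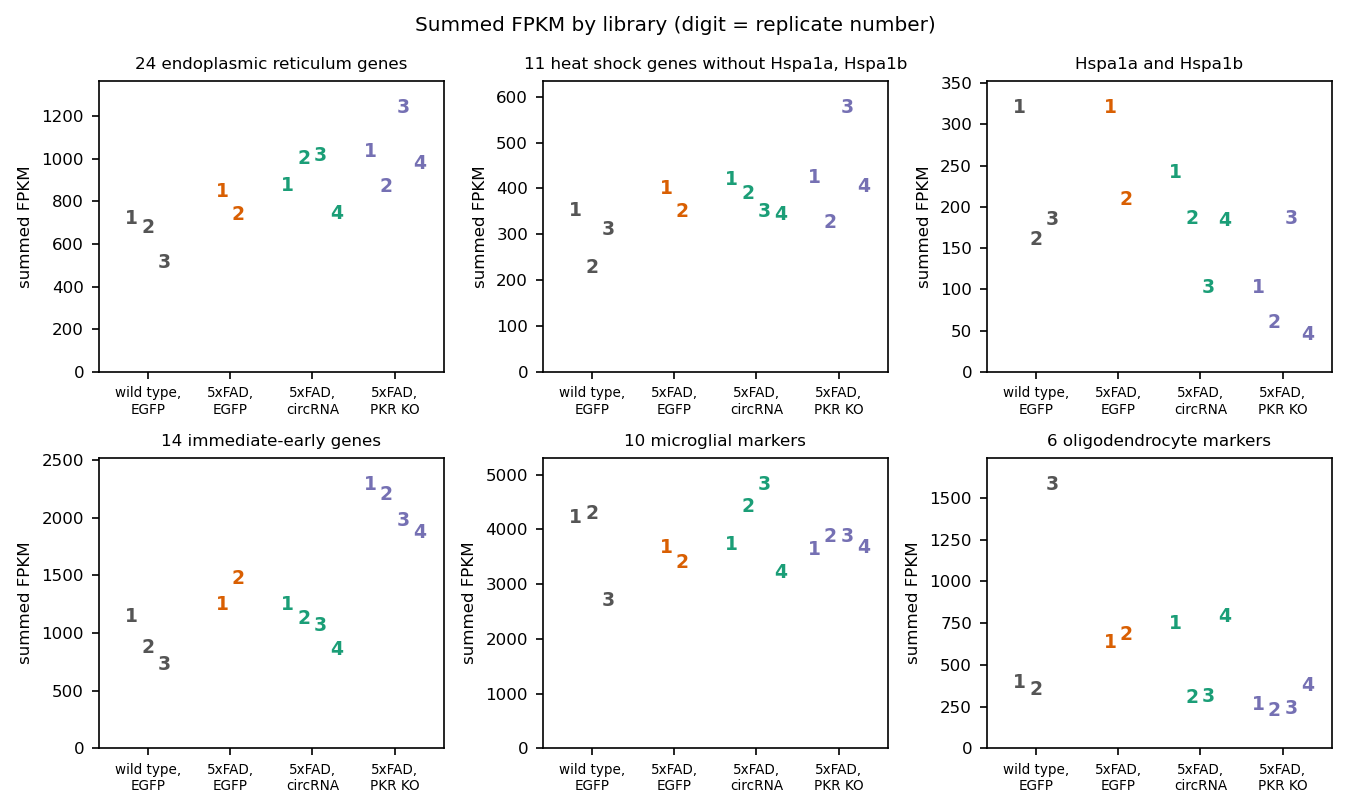
Summed FPKM (vertical axis) of 6 gene lists in each of the 13 libraries, with the replicate number as the symbol and the 4 groups on the horizontal axis. The ER sum separates wild type from the 5xFAD libraries, the 2 lowest sums of Hspa1a and Hspa1b are those of PKR KO replicates 2 and 4, and wild type replicate 3 stands out in the oligodendrocyte markers.

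**Figure D3:**
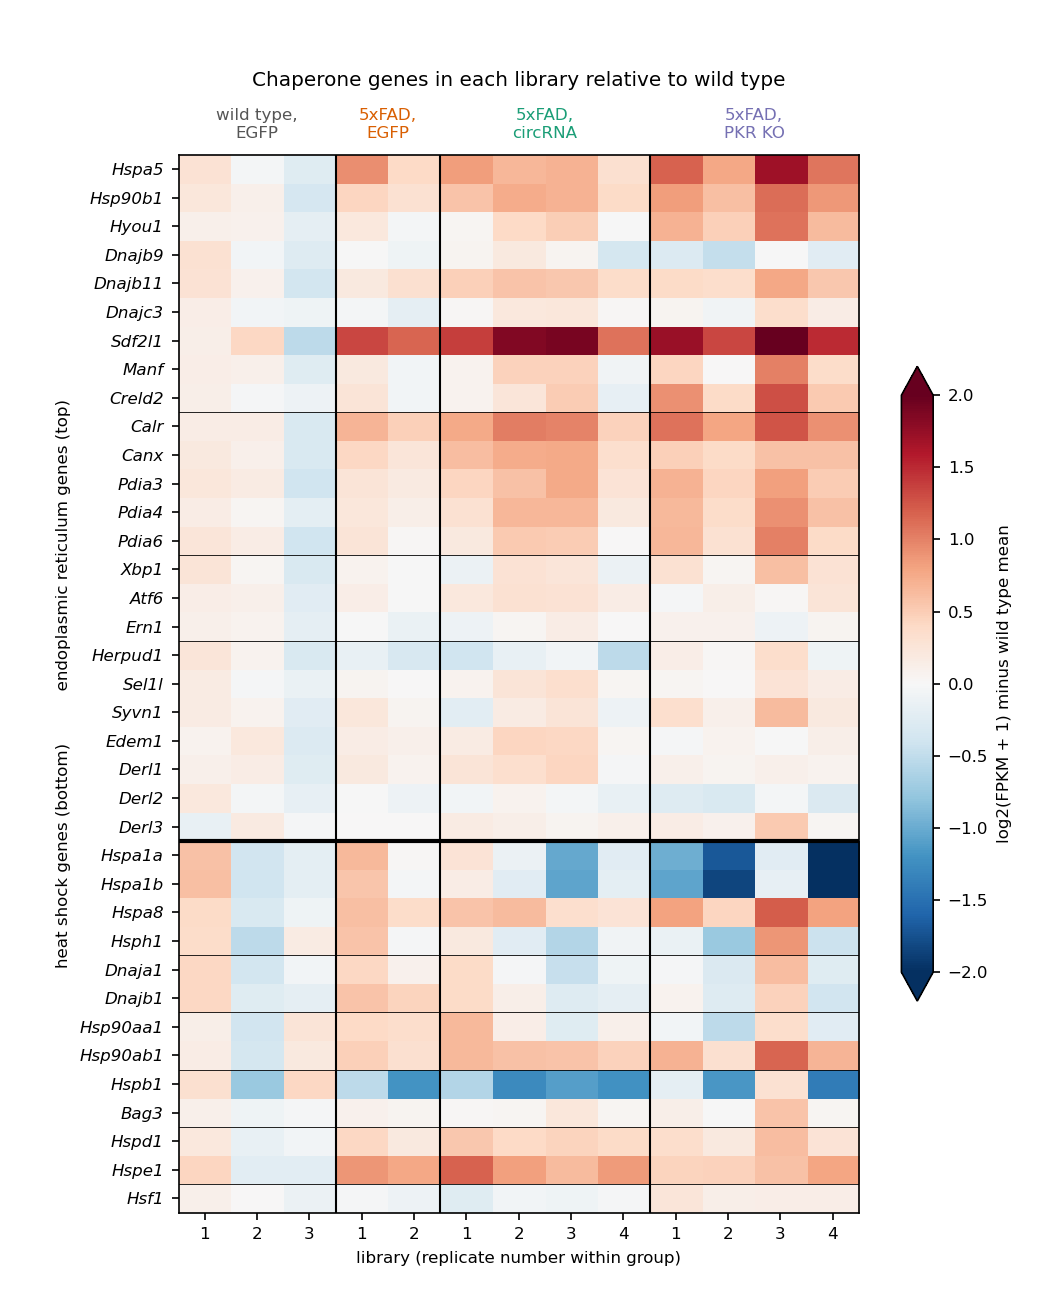
Difference of log2(FPKM + 1) from the wild type mean for the 37 genes (rows) in the 13 libraries (columns), red higher and blue lower, with colours saturated at the ends of the scale. The reddest row is Sdf2l1, and the bluest cells are Hspa1a and Hspa1b in PKR KO replicates 2 and 4.

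Each gene was tested on log2(FPKM + 1) with limma, in 1 fit of all 13 libraries over the 10817 genes whose mean reached 1 FPKM, and called at a Benjamini-Hochberg adjusted p under 0.05. This scale understates the change of low genes. Of the 37 genes, 36 entered the test and Derl3 did not. Against wild type, 1 of 23 ER genes was higher in 5xFAD EGFP, 7 in circRNA and 11 in PKR KO microglia, and 0 were lower in any of these. Over all tested genes, 7.65% were called higher and 6.35% lower in 5xFAD EGFP, 17.8% and 8.05% in circRNA, and 17.5% and 19.4% in PKR KO. The 1514 calls behind the first pair fell to 666 (391 higher) without 5xFAD EGFP replicate 1 and to 566 (487 higher) without replicate 2. The median log2 change of the ER genes was 0.13, 0.24 and 0.45, against -0.03, 0.02 and -0.05 over all genes. These comparisons share the 3 wild type libraries, and the count in 5xFAD EGFP rests on 2 libraries. Rescaling every library to the same FPKM sum moved the median of all genes to -0.21, -0.25 and -0.29, the share of called genes that were higher from 54.6%, 68.8% and 47.5% to 19.7%, 17.8% and 17.8%, and the ER calls to 1 higher, 3 higher with 3 lower, and 8 higher with 2 lower. In 5xFAD EGFP and circRNA the shift in the median of all genes under the same-sum scaling was larger than the ER median itself. After median-ratio scaling 65.7% of the called genes were higher in PKR KO, and the ER calls were 2, 8 and 14 higher. Without wild type replicate 3 the median in 5xFAD EGFP was -0.00, with 11 of 23 positive. It was 0.019 without 5xFAD EGFP replicate 1 and 0.20 without replicate 2, and the median in PKR KO was 0.26 without PKR KO replicate 3. Without wild type replicate 3 the median in circRNA was 0.12, with 4 called higher and 1, Herpud1, lower, and in PKR KO 0.33, with 10 higher and 1, Derl2, lower. Leaving out both wild type replicate 3 and PKR KO replicate 3 left 6 higher and 2 lower in PKR KO, with a median of 0.15. The count in circRNA was 4 without circRNA replicate 2 and 4 without circRNA replicate 3.

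**Figure D4:**
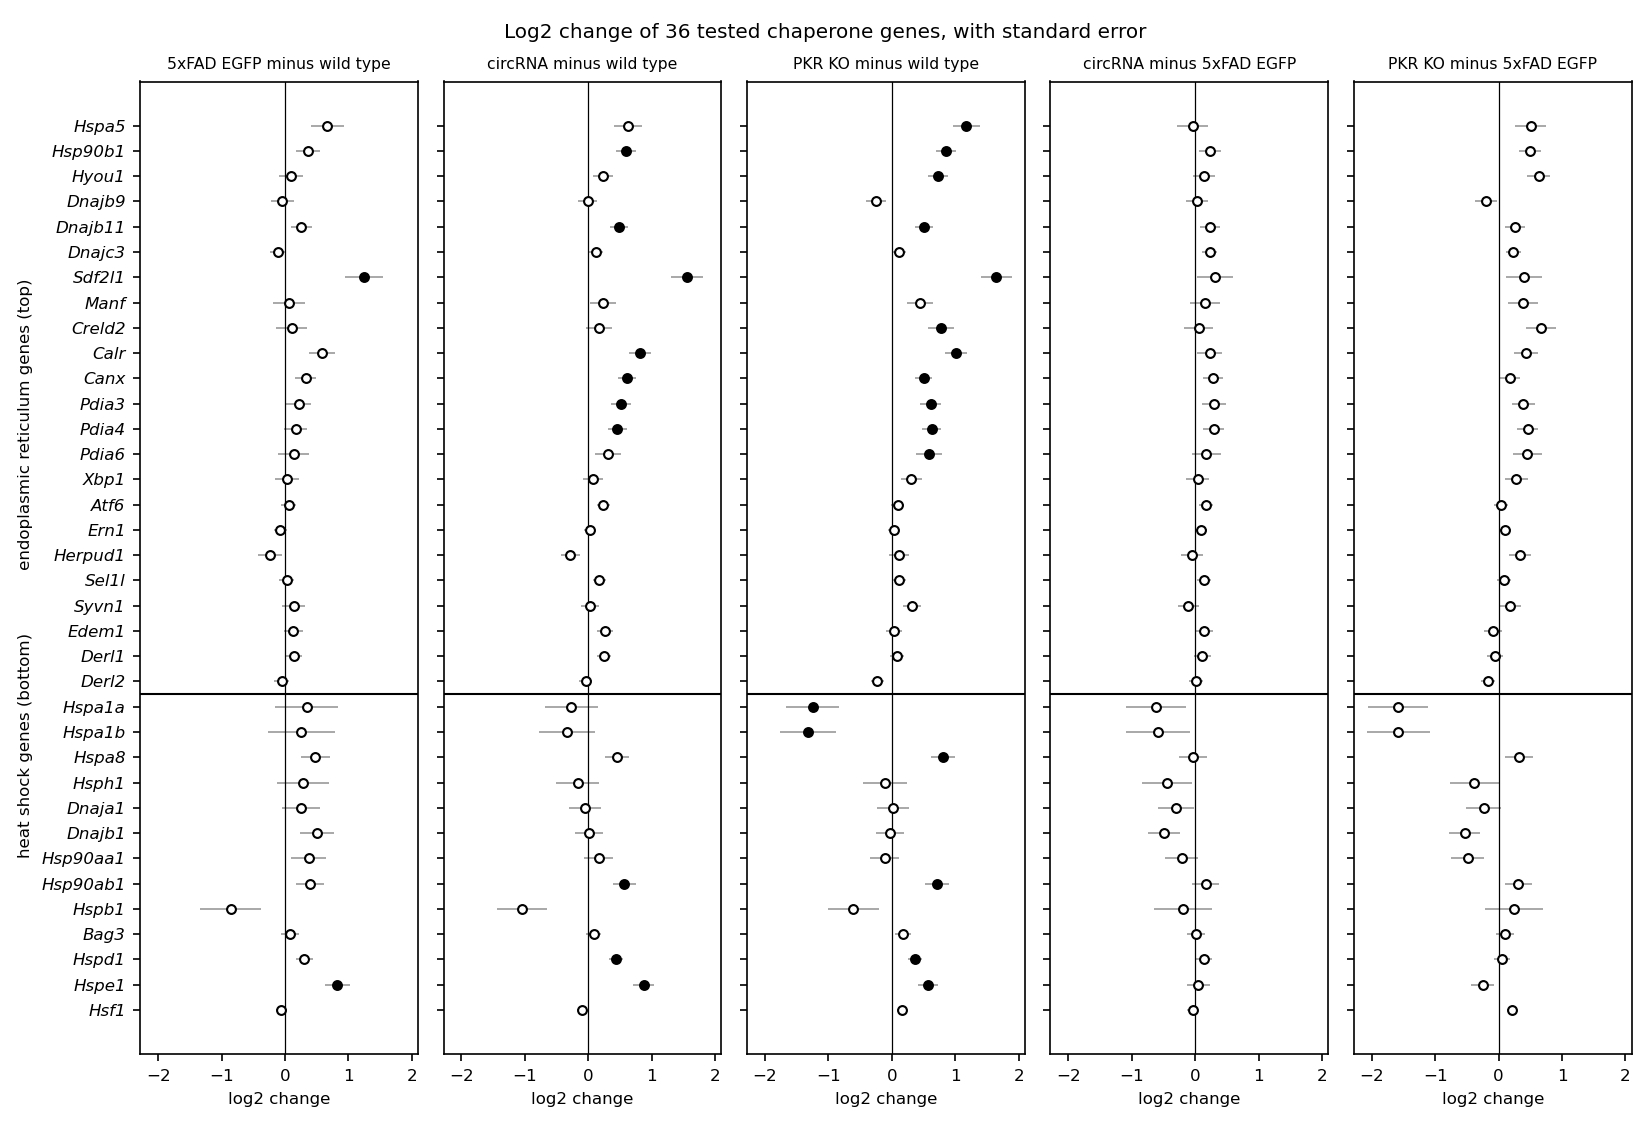
Log2 change (horizontal axis, difference of mean log2(FPKM + 1)) of the 36 tested genes in 5 comparisons, with bars of 1 standard error; filled points passed the adjusted p of 0.05. In the ER arm filled points lie only in the 3 comparisons with wild type and only right of zero, among the lumenal chaperones, lectin chaperones and disulfide isomerases.

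Sdf2l1, a lumenal partner of the BiP co-chaperone Dnajb11, had the largest log2 change from wild type of the 36 tested genes in each 5xFAD group. Its FPKM was 13.5, 16.8 and 8.30 in wild type, 32.8 and 29.0 in 5xFAD EGFP, 34.0, 47.5, 49.0 and 27.5 in circRNA, and 43.5, 32.8, 54.4 and 36.5 in PKR KO. Every 5xFAD library was above every wild type library. The log2 change from wild type was 1.25 (SE 0.30, limma adjusted p = 0.0149) in 5xFAD EGFP, 1.56 (0.25, adjusted p = 0.000633) in circRNA and 1.65 (0.25, adjusted p = 0.00032) in PKR KO. The first of these, the only ER call in 5xFAD EGFP, was lost without 5xFAD EGFP replicate 1 (limma adjusted p = 0.109) or replicate 2 (0.0822). Its promoter held neither the ERSE nor the ERSE-II.

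Hspa5 was at 69.8, 55.2 and 47.9 FPKM in wild type, 109 and 75.8 in 5xFAD EGFP, 102, 91.2, 92.7 and 71.1 in circRNA, and 130, 97.7, 187 and 120 in PKR KO. No 5xFAD library was as low as the highest wild type library, and PKR KO replicate 3 was the highest of all. The log2 change from wild type was 1.18 (SE 0.22, limma adjusted p = 0.00136) in PKR KO. In circRNA it was 0.63 (SE 0.22, limma adjusted p = 0.0505) and in 5xFAD EGFP 0.67 (SE 0.26, limma adjusted p = 0.117), which did not pass the test although the groups did not overlap. In circRNA Hspa5 was called higher without wild type replicate 1 or circRNA replicate 4, under median-ratio scaling, with the replicate block and with the 2 groups alone.

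Hsp90b1, the HSP90 of the ER known as GRP94, was at 81.8, 75.6 and 55.5 FPKM in wild type and 94.4 and 86.4 in 5xFAD EGFP. It was at 105, 118, 114 and 91.7 in circRNA and 126, 107, 153 and 129 in PKR KO. The wild type libraries lay below all others, and the log2 change was 0.60 in circRNA (limma adjusted p = 0.0132) and 0.86 in PKR KO (adjusted p = 0.00113). Dnajb11, an HSP40 that serves BiP, rose by 0.48 (SE 0.14, limma adjusted p = 0.0229) in circRNA and by 0.51 (SE 0.14, adjusted p = 0.0133) in PKR KO, from 5.52 to 9.19 FPKM in wild type to 9.74 to 13.3 in PKR KO. In circRNA the call of Dnajb11 was lost without wild type replicate 3, circRNA replicate 2 or circRNA replicate 3, and with the 2 groups alone. The same-sum scaling ended the circRNA call of Hsp90b1 and both calls of Dnajb11.

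Hyou1 and Creld2 were higher in PKR KO than in wild type, with 5xFAD EGFP and circRNA near wild type. Hyou1, the large HSP70 that exchanges nucleotide on BiP, was at 13.1, 12.9 and 10.6 FPKM in wild type, 14.3 and 11.9 in 5xFAD EGFP, 12.6, 16.3, 17.6 and 12.1 in circRNA, and 20.2, 17.4, 27.0 and 19.5 in PKR KO. Only circRNA replicate 3 reached the lowest PKR KO library. Creld2, a disulfide isomerase-like target of the ER response, was at 11.6, 10.3 and 9.78 FPKM in wild type, 12.8 and 10.1 in 5xFAD EGFP, 11.1, 12.7, 15.4 and 9.24 in circRNA, and 20.7, 14.0, 27.3 and 15.5 in PKR KO. Its lowest PKR KO library was below circRNA replicate 3. The log2 change from wild type in PKR KO was 0.72 for Hyou1 (SE 0.16, limma adjusted p = 0.00396) and 0.78 for Creld2 (SE 0.21, limma adjusted p = 0.0117). Manf, a secreted protein of the same response, was at 8.29 to 17.6 FPKM in PKR KO against 6.85 to 9.14 in wild type and did not pass the test (log2 change 0.45, limma adjusted p = 0.109), except after median-ratio scaling or without PKR KO replicate 2.

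Not every lumenal chaperone was higher. Dnajb9, a BiP co-chaperone induced by XBP1 that holds IRE1 inactive, was at 13.1, 10.0 and 8.55 FPKM in wild type, 10.4 and 9.76 in 5xFAD EGFP, 10.9, 12.1, 10.9 and 7.99 in circRNA, and 8.40, 7.22, 10.3 and 8.74 in PKR KO. The 4 groups overlapped, and the log2 change in PKR KO was -0.25 (limma adjusted p = 0.219). It was called lower after the same-sum scaling, and without both wild type replicate 3 and PKR KO replicate 3. Dnajc3, also called p58IPK, which inhibits PERK and PKR, was at 14.2 to 16.6 FPKM in wild type and 14.4 to 19.5 in PKR KO, with a log2 change of 0.12 (limma adjusted p = 0.381).

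All 5 lectin chaperones and disulfide isomerases were higher in PKR KO than in wild type, and 4 of the 5 in circRNA, beside 17.5% and 17.8% of all genes. Calr, the calcium-binding lectin chaperone calreticulin, was at 110, 110 and 80.5 FPKM in wild type, 160 and 139 in 5xFAD EGFP, 168, 204, 198 and 138 in circRNA, and 211, 172, 238 and 189 in PKR KO. All 5xFAD libraries exceeded all wild type libraries. Calr rose by 0.81 (SE 0.17, limma adjusted p = 0.00431) in circRNA and 1.01 (SE 0.17, limma adjusted p = 0.000771) in PKR KO, and its change of 0.58 in 5xFAD EGFP did not pass (adjusted p = 0.0855). Canx, its membrane-bound relative calnexin, was at 69.5, 64.8 and 48.8 FPKM in wild type, 80.5 and 71.8 in 5xFAD EGFP, 92.8, 102, 102 and 76.2 in circRNA, and 84.2, 79.1, 90.8 and 90.7 in PKR KO. The wild type libraries were again the lowest, and the circRNA mean was the highest of the 4 groups. Canx rose by 0.61 (limma adjusted p = 0.00638) in circRNA and 0.50 (adjusted p = 0.0135) in PKR KO, and the second call was lost under the same-sum scaling.

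The isomerases Pdia3, Pdia4 and Pdia6 form and rearrange disulfide bonds. Pdia3, which works with calreticulin and calnexin, was at 54.7 to 84.1 FPKM in wild type, 87.6 to 123 in circRNA and 97.6 to 128 in PKR KO. Pdia4 was at 25.3 to 32.4 FPKM in wild type, 33.6 to 46.7 in circRNA and 38.0 to 55.3 in PKR KO. Neither overlapped between wild type and these groups. Pdia3 rose by 0.51 in circRNA and 0.61 in PKR KO (limma adjusted p = 0.0365 and 0.0123), and Pdia4 by 0.46 and 0.63 (limma adjusted p = 0.0382 and 0.00611). Pdia6, which also acts on IRE1, was at 15.7 to 25.2 FPKM in wild type and 26.2 to 43.4 in PKR KO. Its log2 change was 0.59 in PKR KO (limma adjusted p = 0.0362) and 0.31 in circRNA (adjusted p = 0.293). The circRNA calls of Pdia3 and Pdia4 were both lost without wild type replicate 3, circRNA replicate 2 or circRNA replicate 3, with no filter, under the same-sum scaling and with the 2 groups alone; that of Pdia3 was also lost without circRNA replicate 1, and that of Pdia4 without wild type replicate 2. The PKR KO call of Pdia6 was lost without wild type replicate 3, PKR KO replicate 1 or PKR KO replicate 3, with no filter, under the same-sum scaling and with the 2 groups alone.

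None of the sensors passed the test. Against wild type, limma called 7.65%, 17.8% and 17.5% of all genes higher in 5xFAD EGFP, circRNA and PKR KO. It called 6.35%, 8.05% and 19.4% lower. So short a list cannot set 0 calls apart from these shares. Of Xbp1, Atf6 and Ern1, 0 were called by limma in any of the 6 comparisons of the 4 groups, although median-ratio scaling gave Xbp1 as higher in PKR KO than in wild type and the same-sum scaling gave Ern1 as lower in circRNA. At an unadjusted p under 0.05 there was 1, Atf6 in circRNA against wild type, with a log2 change of 0.24 (limma adjusted p = 0.0974), beside 3965 of all 10817 genes at that threshold. Xbp1 was at 24.9, 21.2 and 16.5 FPKM in wild type, 21.7 and 20.4 in 5xFAD EGFP, 18.8, 25.3, 24.7 and 18.8 in circRNA, and 25.6, 21.2, 31.9 and 25.4 in PKR KO. All 4 groups overlapped, and gene-level FPKM does not separate its spliced and unspliced forms. The log2 change of Xbp1 from wild type was 0.03 (SE 0.19, limma adjusted p = 0.948) in 5xFAD EGFP and 0.31 (SE 0.16, limma adjusted p = 0.151) in PKR KO. Atf6 was at 6.04 to 9.17 FPKM and Ern1 at 4.38 to 5.74 over all libraries.

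The genes of ER-associated degradation, which pulls misfolded proteins out of the ER for the proteasome, gave no call either. Of the 6 tested genes, 0 passed in limma in any of the 6 comparisons. Against wild type 17.8% of all genes were called higher in circRNA and 17.5% in PKR KO. A list of 6 genes is too short to set 0 calls apart from such shares. The same-sum scaling gave Derl2 as lower in circRNA and PKR KO and Herpud1 as lower in circRNA than in wild type, and median-ratio scaling gave Syvn1 as higher in PKR KO. Against wild type, leaving out wild type replicate 3 gave Herpud1 as lower in circRNA, leaving out circRNA replicate 4 gave Derl1 as higher in circRNA, and leaving out wild type replicate 3, PKR KO replicate 3 or both gave Derl2 as lower in PKR KO. At an unadjusted p under 0.05 there were 2 in PKR KO against wild type (Syvn1 higher, Derl2 lower) and 1 in circRNA against PKR KO (Herpud1 lower). At that threshold 2278 of all 10817 genes were higher and 2778 lower in the first comparison, and 2118 and 638 in the second. Herpud1, a membrane scaffold of the pathway and a common marker of ER stress, was at 37.6, 33.4 and 25.4 FPKM in wild type, 28.3 and 25.3 in 5xFAD EGFP, 23.7, 28.5, 30.5 and 21.7 in circRNA, and 35.0, 32.4, 40.9 and 29.9 in PKR KO. Wild type covered most of the range of the other groups. Syvn1, the ubiquitin ligase HRD1, was at 6.23 to 8.45 FPKM in wild type and 8.11 to 12.2 in PKR KO, and its partner Sel1l was at 11.0 to 15.6 over all libraries. Edem1, a mannosidase-like lectin, was at 27.2 to 44.9 FPKM, and the channel proteins Derl1 and Derl2 at 19.2 to 31.2 and 2.27 to 3.67. Derl3 was under 1 FPKM in every library (0.0425 to 0.666).

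**Figure D5:**
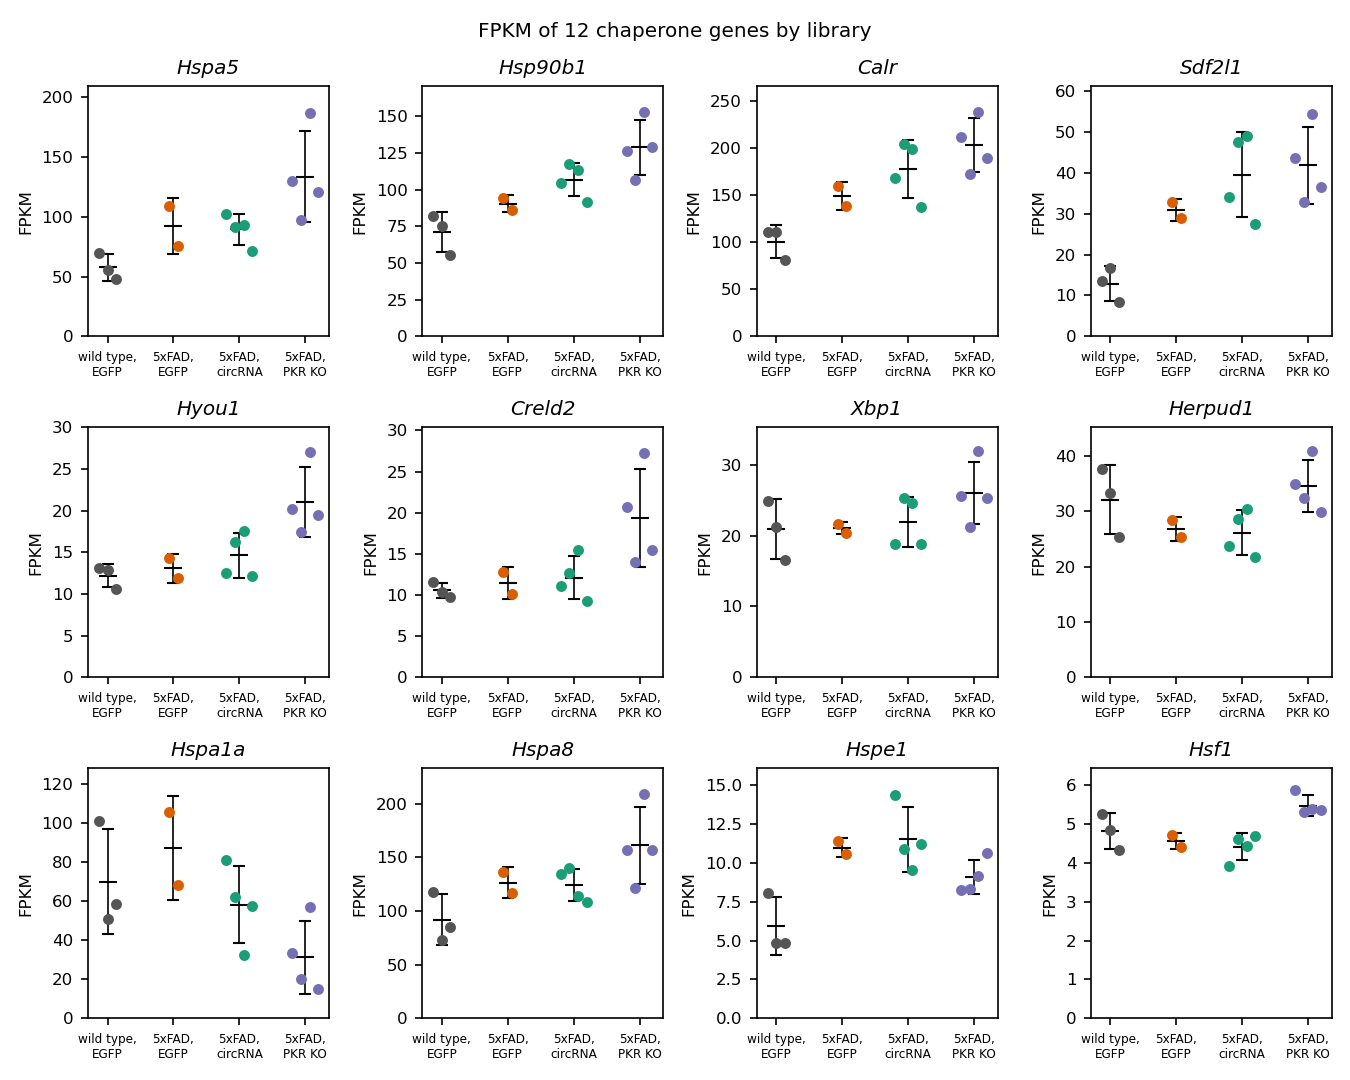
FPKM (vertical axis, from 0) of 12 of the genes in each library, with the group mean and its SD as bars and the 4 groups on the horizontal axis. Hspa5, Hsp90b1, Calr and Sdf2l1 lie above wild type in every 5xFAD library, Hyou1 and Creld2 stand out in PKR KO, and Hspa1a has its lowest mean in PKR KO.

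Setting the called genes beside the promoter letters gave, of the ER genes tested in PKR KO against wild type, 7 called higher of 10 with an ERSE or ERSE-II (median log2 change 0.55). Of the 9 with neither, 3 were called (Pdia3, Pdia4 and Sdf2l1; median 0.12), and of the 4 with no promoter in the table, 1 (Hyou1). Over all genes 17.5% were called higher, with a median of -0.05. These counts were not tested. Herpud1, Dnajc3 and Syvn1 held the letters and were not called.

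Between the 5xFAD groups, the ER genes gave no call. CircRNA against 5xFAD EGFP had 0 of 23 called in either direction, against 0% of all genes higher and 0% lower, and 0 of 23 at an unadjusted limma p under 0.05, where 491 of all genes were higher and 32 lower. The median ER change was 0.14, and 0.08 over all genes. The ER median was 0.057 without 5xFAD EGFP replicate 2, 0.22 without 5xFAD EGFP replicate 1, and 0.087 and 0.081 without circRNA replicate 2 and 3. The median of all genes was 0.014 after median-ratio scaling and -0.011 after the same-sum scaling. Scaling shifts every gene of a library alike, so the ER median also depends on it. The smallest p-values belonged to Dnajc3 (log2 change 0.23), Canx (0.28) and Pdia4 (0.29), each at a limma adjusted p of 0.739. Hspa5 differed by -0.04 (SE 0.25, 95% interval -0.57 to 0.50, limma adjusted p = 0.963) and Xbp1 by 0.04 (SE 0.18, interval -0.36 to 0.44, adjusted p = 0.942), which leaves room for changes of that size in either direction.

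PKR KO against 5xFAD EGFP, in which the knockout cannot be told apart from a processing batch or from a difference in vector, which the labels do not give, also had 0 of 23 ER genes called by limma, against 0.0832% of all genes higher and 0% lower. At an unadjusted p under 0.05, 5 of the 23 were higher and 0 lower, against 802 and 602 of all 10817 genes. The sum of the 6 oligodendrocyte markers was lower in PKR KO (225 to 375 FPKM) than in 5xFAD EGFP (636 and 680), as was that of the 8 neuronal markers (12.0 to 21.4 against 28.4 and 33.1), and their part in these values was not tested. The median was 0.28 (0.18 without PKR KO replicate 3), and 0.01 over all genes, with 19 of 23 positive. Hyou1 was higher by 0.63 (SE 0.18, limma adjusted p = 0.209), Creld2 by 0.67 (SE 0.23, limma adjusted p = 0.256) and Hsp90b1 by 0.50 (SE 0.17, limma adjusted p = 0.262). For these 3 genes, picked by their smallest p-values, every PKR KO library was above both 5xFAD EGFP libraries. How many of all genes show no overlap between these groups was not counted. Hspa5 differed by 0.51 (95% interval -0.02 to 1.04, limma adjusted p = 0.404) and Xbp1 by 0.28 (interval -0.12 to 0.68, adjusted p = 0.519), with overlapping libraries. CircRNA against PKR KO, which uses no EGFP library, had 0 of 23 called, against 4.28% of all genes higher and 1.91% lower, and 4 lower at an unadjusted limma p under 0.05, where 2118 of all 10817 genes were higher and 638 lower. Its smallest p-values were those of Hyou1 (log2 change -0.49, limma adjusted p = 0.0648), Creld2 (-0.61, adjusted p = 0.0735) and Herpud1 (-0.39, adjusted p = 0.108). After median-ratio scaling these 3 and Hspa5 passed the test as lower in circRNA, and the share of all called genes that were higher went from 69.1% to 17.4% (52.6% after the same-sum scaling). The 670 calls over all genes also fell when 1 library was left out, to 147 without PKR KO replicate 1, 162 without circRNA replicate 1, 164 without PKR KO replicate 2, 225 without PKR KO replicate 3 and 310 without circRNA replicate 3, with 47.6% to 52.4% of them higher.

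Against wild type, 1 of the 13 heat shock genes was higher in 5xFAD EGFP (Hspe1), 3 in circRNA (Hspe1, Hspd1 and Hsp90ab1) and 4 in PKR KO (these and Hspa8), and 2 were lower in PKR KO (Hspa1a and Hspa1b). Over all genes 7.65%, 17.8% and 17.5% were higher and, in PKR KO, 19.4% lower. In a list of 13 genes none of these counts lay far from the shares of all genes. The median change of the 13 genes was 0.30, 0.02 and 0.02, and single libraries moved it. In 5xFAD EGFP it was 0.09 without its replicate 1, 0.48 without its replicate 2, 0.46 without wild type replicate 1 and 0.15 without wild type replicate 2. It ran from -0.10 (without wild type replicate 2) to 0.16 (without wild type replicate 1) in circRNA, and from -0.18 (without PKR KO replicate 3) to 0.21 (without wild type replicate 1) in PKR KO. With the same-sum scaling 1 was higher and 2 were lower in circRNA, and 2 were higher (Hspa8 and Hsp90ab1) and 2 lower (Hspa1a and Hspa1b) in PKR KO. That scaling moved the median of all genes from 0.02 to -0.25 in circRNA and from -0.05 to -0.29 in PKR KO. These shifts are larger than the heat shock medians of 0.02, so the sign of those medians depends on the scaling. Between 5xFAD groups, 0 of 13 were called by limma in circRNA or PKR KO against 5xFAD EGFP, beside 0% and 0.0832% of all genes higher and 0% lower. In circRNA against PKR KO 1, Hsf1, was lower, beside 1.91% of all genes. At an unadjusted limma p under 0.05 the counts against 5xFAD EGFP were 0 in circRNA and, in PKR KO, 1 higher and 2 lower. Over all 10817 genes, 491 were higher and 32 lower in circRNA, and 802 and 602 in PKR KO.

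Hspa1a and Hspa1b, the stress-inducible HSP70 pair, lie next to each other at chr17:34969190-34972156 and chr17:34956436-34959238 (GENCODE M21, mm10). Their coding sequences are nearly identical, so the split of fragments between them is uncertain; the ratio of Hspa1a to Hspa1b was 0.442 to 0.502 in every library. Hspa1a was at 101, 50.8 and 58.3 FPKM in wild type, 106 and 68.3 in 5xFAD EGFP, 80.7, 61.9, 32.5 and 57.3 in circRNA, and 33.3, 19.9, 56.9 and 15.1 in PKR KO. Hspa1b was at 219, 110 and 126 in wild type, 214 and 140 in 5xFAD EGFP, 161, 124, 69.5 and 126 in circRNA, and 69.3, 39.8, 129 and 30.1 in PKR KO. Replicate 1 of each EGFP group was the highest, and PKR KO replicate 3 overlapped with wild type while replicates 1, 2 and 4 did not.

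From wild type to PKR KO, Hspa1a fell by 1.25 (SE 0.42, limma adjusted p = 0.0346) and Hspa1b fell by 1.32 (SE 0.44, limma adjusted p = 0.0341) on the log2 scale. The call of Hspa1a was lost without wild type replicate 1 (limma adjusted p = 0.141), PKR KO replicate 2 (0.0891) or PKR KO replicate 4 (0.0917), and Hspa1b lost its call in the same 3 fits. Both calls were also lost with no filter on low values and with the 2 groups alone. Against 5xFAD EGFP the pair was lower in PKR KO by more, -1.59 (SE 0.48, limma adjusted p = 0.216) and -1.58 (SE 0.50, adjusted p = 0.228), with no overlap, and did not pass. Against 5xFAD EGFP, circRNA differed by -0.61 (SE 0.48, limma adjusted p = 0.743) and -0.59 (SE 0.50, adjusted p = 0.747). Between 5xFAD EGFP and wild type Hspa1a differed by 0.34 (SE 0.50, limma adjusted p = 0.720).

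A list of 14 immediate-early genes, which also respond to cell isolation, was highest in PKR KO, where Hspa1a and Hspa1b were lowest on average. Its sum was 1141, 874 and 724 FPKM in wild type, 1249 and 1476 in 5xFAD EGFP, 1251, 1129, 1063 and 855 in circRNA, and 2289, 2204, 1980 and 1869 in PKR KO. All 4 PKR KO libraries were above all others. Limma called 13 of the 14 higher in PKR KO than in wild type, beside 17.5% of all genes. It called 13 lower in circRNA than in PKR KO, beside 1.91% of all genes. In circRNA against 5xFAD EGFP the median change of the list was -0.38, with 0 of 14 called, beside 0% of all genes. In 5xFAD EGFP against wild type it was 0.65, with 5 of 14 called higher, beside 7.65% of all genes. Both signs are those of Hspa1a. The part of isolation in the heat shock values was not tested.

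The constitutive Hspa8 and Hsp90ab1 were called higher in PKR KO than in wild type, where the inducible pair was called lower. Hspa8, the housekeeping HSP70, was at 118, 72.7 and 84.9 FPKM in wild type, 137 and 116 in 5xFAD EGFP, 134, 140, 114 and 108 in circRNA, and 157, 122, 209 and 157 in PKR KO. All PKR KO libraries were above all wild type libraries, and Hspa8 rose by 0.81 (SE 0.19, limma adjusted p = 0.00696). Its change was 0.48 (SE 0.23, limma adjusted p = 0.214) in 5xFAD EGFP against wild type, and -0.03 (SE 0.22, adjusted p = 0.969) and 0.33 (SE 0.22, adjusted p = 0.534) in circRNA and PKR KO against 5xFAD EGFP. Hsp90ab1, the constitutive cytosolic HSP90, was at 112, 78.1 and 116 FPKM in wild type, 140 and 126 in 5xFAD EGFP, 158, 152, 149 and 138 in circRNA, and 163, 126, 226 and 162 in PKR KO. For this gene wild type was below every 5xFAD library, and it rose by 0.56 (limma adjusted p = 0.0395) in circRNA and 0.72 (adjusted p = 0.00983) in PKR KO. The first call was lost without wild type replicate 2 or circRNA replicate 1, 2 or 3, with no filter, under the same-sum scaling and with the 2 groups alone. Both genes have processed pseudogenes that can share their fragments.

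Hsp90aa1, the inducible HSP90, was at 21.7 to 34.6 FPKM in wild type and 19.6 to 36.8 in PKR KO, with overlap. Hsph1, the HSP110 that assists HSP70, was at 7.27, 3.45 and 6.19 FPKM in wild type and 4.83, 2.85, 10.9 and 3.79 in PKR KO. The HSP40 genes Dnaja1 and Dnajb1, which hand clients to HSP70, were at 2.77 to 7.03 and 8.72 to 17.8 over all libraries. Dnajb1 differed by -0.49 between circRNA and 5xFAD EGFP (SE 0.25, limma adjusted p = 0.739), with no overlap between the groups. PKR KO replicate 3 was the highest of its group for 11 of the 13 heat shock genes, wild type replicate 1 for 10, and 5xFAD EGFP replicate 1 was above replicate 2 for all 13.

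Hspb1, the small heat shock protein HSP27, was at 27.1, 12.5 and 29.1 FPKM in wild type, 14.8 and 8.88 in 5xFAD EGFP, 14.0, 8.31, 9.49 and 8.76 in circRNA, and 18.9, 9.07, 26.9 and 7.53 in PKR KO. The lowest wild type library overlapped with each 5xFAD group, and the change in circRNA, -1.04 (SE 0.40, limma adjusted p = 0.0761), did not pass; it was called lower without wild type replicate 2, under the same-sum scaling, with the replicate block and with the 2 groups alone. Endothelial and mural cells, which express Hspb1, gave higher marker sums in wild type, and their part in its level was not tested. Bag3, an HSP70 co-chaperone that guides clients to autophagy, was at 7.25 to 12.0 FPKM over all libraries.

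The mitochondrial chaperonin pair, Hspd1 (HSP60) and Hspe1 (HSP10), form the folding chamber of the mitochondrial matrix. Hspe1 was at 8.06, 4.84 and 4.84 FPKM in wild type, 11.4 and 10.5 in 5xFAD EGFP, 14.4, 10.9, 9.52 and 11.2 in circRNA, and 8.25, 8.34, 9.16 and 10.7 in PKR KO. No wild type library reached a 5xFAD library. Hspe1 rose by 0.82 (SE 0.19, limma adjusted p = 0.0143) in 5xFAD EGFP, 0.87 (SE 0.16, limma adjusted p = 0.00185) in circRNA and 0.57 (SE 0.16, limma adjusted p = 0.0161) in PKR KO. The call in 5xFAD EGFP was lost without its replicate 1 (limma adjusted p = 0.105) or 2 (0.0809) and with the 2 groups alone, and that in PKR KO without wild type replicate 2 (0.0619) or 3 (0.0570) and under the same-sum scaling.

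Hspd1 was at 11.7, 8.96 and 9.56 FPKM in wild type, 13.6 and 11.7 in 5xFAD EGFP, 15.0, 13.6, 14.0 and 13.4 in circRNA, and 13.0, 11.6, 15.9 and 12.3 in PKR KO. The circRNA libraries were all above wild type, and PKR KO overlapped with it by 1 library. Hspd1 rose by 0.44 (limma adjusted p = 0.0113) in circRNA and 0.36 (adjusted p = 0.0238) in PKR KO. The second call was lost without wild type replicate 2 (limma adjusted p = 0.0889), wild type replicate 3 (0.0599) or PKR KO replicate 3 (0.0569) and with the 2 groups alone, and the same-sum scaling ended both calls. These are the genes whose shared promoter held the heat shock element, although the other promoter entry of Hspd1 did not. Hsph1, the third gene with the element, was not called.

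Hsf1, the transcription factor of the heat shock response, was at 5.25, 4.85 and 4.34 FPKM in wild type, 4.71 and 4.41 in 5xFAD EGFP, 3.92, 4.61, 4.44 and 4.69 in circRNA, and 5.86, 5.29, 5.37 and 5.35 in PKR KO. PKR KO lay above every other library. Hsf1 was lower in circRNA than in PKR KO by -0.26 (SE 0.07, limma adjusted p = 0.0432), and this call was lost when any 1 of the 8 libraries of the comparison was left out (adjusted p = 0.0522 to 0.123). PKR KO against 5xFAD EGFP gave 0.22 (SE 0.08, limma adjusted p = 0.287).

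Other genes of the same pathways were taken from lists made beside the 37 genes. Of 35 further ER genes tested, limma called 1 higher in 5xFAD EGFP, 13 in circRNA and 7 in PKR KO than in wild type, and 1 lower in PKR KO. Over all genes 7.65%, 17.8% and 17.5% were called higher and 6.35%, 8.05% and 19.4% lower, so the count was below that share in 5xFAD EGFP and near it in PKR KO. Os9, a lectin of ER-associated degradation, rose by 0.62, 0.88 and 0.86, and Serp1, which stabilises membrane proteins at the translocon, by 0.65 in circRNA and 0.74 in PKR KO. Nucb2, a calcium-binding protein of the secretory pathway, rose by 0.68 and 0.54. Of 17 genes of the PERK and ATF4 arm, 3, 5 and 5 were higher and, in PKR KO, 1 (Vldlr) lower, to be read against the same shares. Atf3, a stress-induced transcription factor that is also on the immediate-early list, was at 25.5 to 40.0 FPKM in wild type, 84.6 and 114 in 5xFAD EGFP, 62.6 to 90.5 in circRNA and 126 to 161 in PKR KO. No 2 of these groups overlapped except 5xFAD EGFP and circRNA. Its log2 change from wild type was 1.58 (limma adjusted p = 0.000377), 1.16 (adjusted p = 0.000406) and 2.15 (adjusted p = 2.3e-06). Ppp1r15a, the eIF2alpha phosphatase subunit GADD34, was at 8.08 to 12.5 FPKM in wild type and 21.9 to 27.6 in PKR KO, and rose by 0.55 in 5xFAD EGFP and 1.22 in PKR KO. Psat1, an enzyme of serine synthesis, rose by 1.39, 1.57 and 1.56.

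Of 39 further heat shock and chaperonin genes, limma called 1 higher and 1 lower in 5xFAD EGFP, 11 and 2 in circRNA, and 12 and 5 in PKR KO, against wild type, beside the same shares of all genes. Bag1, an HSP70 nucleotide exchange factor, rose by 0.65, 0.90 and 0.88, and Cct2, a subunit of the cytosolic chaperonin, by 0.65 in circRNA. The lower genes in PKR KO included Hspa2 (log2 change -1.16), Serpinh1, a collagen chaperone (-1.02), and the small heat shock gene Hspb8 (-0.96). Against 5xFAD EGFP, 0 genes of these 3 lists were called by limma in circRNA or PKR KO, beside 0% and 0.0832% of all genes higher. At an unadjusted limma p under 0.05, the 3 lists gave 3, 0 and 4 higher in circRNA, and 0 lower. In PKR KO they gave 2, 3 and 2 higher and 0, 1 and 1 lower. Over all 10817 genes, 491 were higher and 32 lower in circRNA, and 802 and 602 in PKR KO. CircRNA against PKR KO gave Ppp1r15a (-1.01) and Atf3 (-0.99) lower, and Mthfd2 (0.63), Erlec1, Ssr3, Dnaja2 and Hsf2 higher. Over all genes 1.91% were called lower and 4.28% higher in that comparison.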

How the data were processed

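Ribosomal-RNA-depleted total RNA of microglia was sequenced from stranded libraries, per the labels' protocols. The FPKM values were made and deposited by the authors. The submitters' processing notes name Bowtie2 2.3.5, HISAT2 2.1.0, featureCounts 1.5.1 and the build mm10. How the microglia were separated, the annotation and the strand setting are not given in the sources used here. Reads of overlapping or near-identical genes may therefore be shared.

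Values were tested as log2(FPKM + 1) with limma 3.58.1 in R 4.3.3. All 13 libraries entered 1 fit with a mean per group (9 residual degrees of freedom), a trend in the variance, and Benjamini-Hochberg adjustment over 10817 genes. The fit was checked on simulated data. Depth came from the steps between low values and GENCODE M21 exon lengths: 91.8% of 25287 low values were whole fragments within 0.02, against 4% with no steps. Fragments counted in part occur, so a depth that is off by a factor of 2 in all libraries cannot be told apart. FPKM sums were 123352 to 170775.

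Named genes are those past the threshold (at most 10 of each arm), or else the 3 with the smallest p, with Hspa5, Xbp1, Hspa1a and Hspa8. The genes and lists were chosen with earlier results of these data known. The share of all genes without overlap between groups was not counted, so a lack of overlap is a description and not a further test. The alternatives were pseudocount 0.1, no filter, 2 scalings (median-ratio size factors, and the same FPKM sum in every library), a replicate block, the 2 groups alone and leaving out each library.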

Additional observations from a re-analysis of the deposited data

Results flagged for a closer look

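Among the groups of 4 libraries, 4 single values lay far outside the other 3 by Dixon's test, out of 74 groups tested. Chance alone gives about 1 such value in 20 groups. Ern1 was at 4.69 FPKM in PKR KO replicate 3, against 5.32 to 5.45 in the other PKR KO libraries. Derl2 was at 2.92 FPKM in the same library, against 2.27 to 2.36. Bag3 was at 9.21 FPKM in circRNA replicate 3, against 7.88 to 7.98. Hsf1 was at 5.86 FPKM in PKR KO replicate 1, against 5.29 to 5.37.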

How the results depend on the processing

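The limits are the 2 libraries of 5xFAD EGFP, the lack of counts, and depths that differ between groups. For 5xFAD EGFP against wild type, the calls went from 1 to 2 in the ER arm (Calr added) and from 1 to 2 in the heat shock arm (Hspd1 added) after median-ratio scaling, and to 0 and 0 with the 2 groups alone; leaving out 1 library gave 0 to 1 in each arm, with 0 in both without 5xFAD EGFP replicate 1 or 2. The lone library left is then assumed to vary like the other groups. For circRNA against wild type the ER count of 7 was 4 to 9 when 1 library was left out, with 4 without circRNA replicate 2 or 3. For PKR KO against wild type the heat shock calls went from 6 to 3 with the 2 groups alone and to 4 with no filter, and Hspa1a and Hspa1b were lost in both. For circRNA against PKR KO the ER count of 0 became 4 after median-ratio scaling and 2 after the same-sum scaling. Its heat shock count of 1 became 0 with no filter and was 0 in each fit with 1 of its libraries left out. With the replicate number as a block, circRNA against PKR KO gave 1 ER call (Creld2) and 0 heat shock calls, and circRNA against wild type gave 8 and 4 calls. Whether the numbers pair the libraries is not given by the labels. Deviations of same-numbered libraries correlated at -0.42 to 0.69 (3 pairs, circRNA and wild type), -0.18 to 0.58 (3, PKR KO and wild type), 0.04 to 0.55 (4, circRNA and PKR KO), 0.27 and 0.38 (PKR KO and 5xFAD EGFP), -0.03 and 0.27 (5xFAD EGFP and wild type) and -0.02 and 0.17 (circRNA and 5xFAD EGFP); as not all passed 0.1, they were not treated as pairs. Among the named results for single genes, the sign of 4 changes near zero turned. For Xbp1 in 5xFAD EGFP against wild type it was -0.14 after the same-sum scaling and -0.12 to 0.16 with 1 library left out. For Xbp1 in circRNA against 5xFAD EGFP it was -0.043 after median-ratio scaling, -0.074 after the same-sum scaling and -0.030 to 0.11 with 1 library left out. In that comparison Hspa5 ran from -0.30 to 0.22 and Hspa8 from -0.14 to 0.086 with 1 library left out. The cause was not tested for any of these. Over all genes, the calls in PKR KO against 5xFAD EGFP went from 9 to 0 (pseudocount 0.1, no filter, same sum), 0 to 2 (1 library left out), 22 (block), 46 (median-ratio) and 577 (2 groups alone). The 1514, 2796 and 3997 calls of 5xFAD EGFP, circRNA and PKR KO against wild type became 3592, 5613 and 6583 after the same-sum scaling, and the first 2 became 509 and 1725 with the 2 groups alone. Pseudocount 0.1 changed no call of the 54 named results. Leaving out both wild type replicate 3 and PKR KO replicate 3 was chosen after seeing the data.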
